A study of Mus musculus with 26 samples.

Results

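Aminoacyl-tRNA synthetases join each amino acid to its transfer RNA (tRNA), the charged form that the ribosome uses. The set described here lists 36 genes for these enzymes, chosen by symbol, with 20 enzymes of the cytosol and 16 of the mitochondrion (symbols ending in 2). Of these, 34 were measured among 19937 genes: 18 of the 20 cytosolic and all 16 mitochondrial enzymes. Aars shared its probe set with another gene and Dars matched no annotated probe set, so the cytosolic alanyl and aspartyl enzymes were not analysed here.

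Expression was measured on 26 Affymetrix gene arrays, in 8 groups of mouse cells of strain C57BL/6. Long-term haematopoietic stem cells (LT-HSC, n = 4) and granulocyte-macrophage progenitors (GMP, n = 4) were sorted from wild-type bone marrow. Lines immortalized from either cell type were harvested from liquid culture with or without doxycycline (dox): LT-HSC-derived lines at 48 h (n = 2 with dox, n = 3 without) and at 72 h (n = 3 and 3), and GMP-derived lines at 48 h (n = 4 with dox, n = 3 without). The series title names MLL-AF9, a leukaemia fusion oncogene that dox is known to switch on in lines of this kind. The labels name neither the genotype of the lines nor whether the hours count from adding or removing dox. They name each line (B6-1, B6-2, B6-3 and F6-6), so that arrays with and without dox could be paired. The labels do not tie sorted replicates to separate mice, so p-values for them cannot be read as covering the spread among mice. In the main fit the spread behind a p-value was pooled over all 26 arrays and drawn toward that of other genes.

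Cytosolic synthetases charge the tRNAs for all proteins made outside the organelle, and several of them sit in a multi-synthetase complex held together by scaffold proteins. The mitochondrial enzymes are encoded in the nucleus, imported, and charge the tRNAs that the organelle uses to make subunits of its respiratory chain. Kars and Gars serve both compartments from a single gene. When amino acids run short, the kinase GCN2 (Eif2ak4) leads to translation of the transcription factor ATF4, which is known to raise transcription of amino acid synthesis genes, amino acid transporters and many cytosolic synthetases. MYC, a transcription factor active in proliferating progenitors, is another known activator of genes for protein synthesis.

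Within groups, replicate arrays had r of 0.979 to 0.991, and array medians lay between 5.81 and 5.91 on the log2 scale of the deposited values. The sorted cells carried their markers: all 7 measured HSC markers were lower and all 5 GMP markers higher in sorted GMP. LT-HSC-derived lines no longer showed the HSC pattern. Their mean HSC marker signal was 5.13 to 5.91 per array, against 8.03 to 8.16 in sorted LT-HSC, while their GMP markers averaged 10.05 to 10.73 per array, against 10.87 to 11.01 in sorted GMP. B cell and erythroid markers averaged below the median of all probe sets (5.86) on every array. T cell markers lay above it, at up to 6.32, on some arrays of LT-HSC-derived lines and on no others, with 3 of 4 genes below that median in every group. Megakaryocyte markers averaged 8.13 to 8.60 in sorted LT-HSC, 6.06 to 7.32 in LT-HSC-derived lines without dox, 5.80 to 6.49 in those with dox and 5.50 to 6.28 elsewhere, and stromal and endothelial markers 6.29 to 6.84 on all arrays. The part of these cells in the synthetase results was not tested.

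Promoter sequence was examined because the cytosolic genes moved together and ATF4 and MYC each bind a known motif. RefSeq windows of GRCm38.p6, from 250 bases before to 50 after an annotated start, were found for 25 of the 34 measured genes. TGATGNAA, the element bound by dimers of ATF4 with C/EBP proteins, occurred on either strand in 4 of 11 cytosolic genes with a window (36.4%) and in 0 of 14 mitochondrial genes. Of 32851 windows of the same length, 3.97% held it. CACGTG, the E-box bound by MYC with MAX, occurred in 3 of 11 cytosolic genes (Farsb, Iars and Tars, 27.3%), in 1 of 14 mitochondrial genes (Ears2) and in 7.15% of all windows. The 4 cytosolic matches to the first motif are shown with the surrounding bases, 5′ to 3′ on the gene's own strand, with the match in capitals. On that strand Yars reads TGATGNAA directly, and Gars, Iars and Tars hold its reverse complement. The 80 bases upstream of Rars2 and Yars2, the mitochondrial genes that rose most with dox in GMP-derived lines, are shown for contrast and hold no match. These stretches end at the start and do not cover the positions of the Iars and Yars matches. The whole windows of both genes, which do, held none either. A match describes the letters and is not evidence of binding.

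Gars, chr6:55037921-55038000, plus strand: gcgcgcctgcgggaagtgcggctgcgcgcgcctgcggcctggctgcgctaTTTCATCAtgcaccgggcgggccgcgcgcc
Iars, chr13:49682126-49682155, plus strand: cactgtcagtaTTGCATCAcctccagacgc
Tars, chr15:11399659-11399723, minus strand: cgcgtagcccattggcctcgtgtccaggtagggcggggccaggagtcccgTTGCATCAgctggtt
Yars, chr4:129189895-129189924, plus strand: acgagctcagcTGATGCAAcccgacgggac
Rars2, chr4:34614877-34614956, plus strand: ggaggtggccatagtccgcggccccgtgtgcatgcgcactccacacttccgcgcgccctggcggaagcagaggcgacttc
Yars2, chr16:16302885-16302964, plus strand: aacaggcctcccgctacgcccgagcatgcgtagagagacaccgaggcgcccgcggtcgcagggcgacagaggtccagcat

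Counted from the annotated start as base 1, the matches began at -30 in Gars, 8 in Iars, -15 in Tars and 4 in Yars. The matches of Iars and Yars therefore lie just inside the annotated transcript, and those of Gars and Tars just before it.

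The cytosolic enzymes had their lowest and highest levels in few of the 8 groups. The matching counts over all genes were not made, so this pattern cannot be called particular to the synthetases. For 13 of the 18 cytosolic genes the lowest group mean was that of sorted LT-HSC, and for the other 5 that of GMP-derived lines without dox. The highest mean was that of GMP-derived lines with dox for 10 of them, sorted GMP for 5, dox-treated LT-HSC-derived lines at 72 h for 2 and the same lines at 48 h for 1. Mitochondrial genes had their lowest mean in 6 different groups, most often in GMP-derived lines without dox (5 of 16), and their highest in sorted GMP (5), sorted LT-HSC (4), GMP-derived lines with dox (4) or any of 3 other groups. The group means of Aars2 lay below the median of all probe sets in all 8 groups, those of Pars2 in 5 and those of Vars2 in 3, so differences of these genes are measured near the lower part of the scale.

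**Figure D1:**
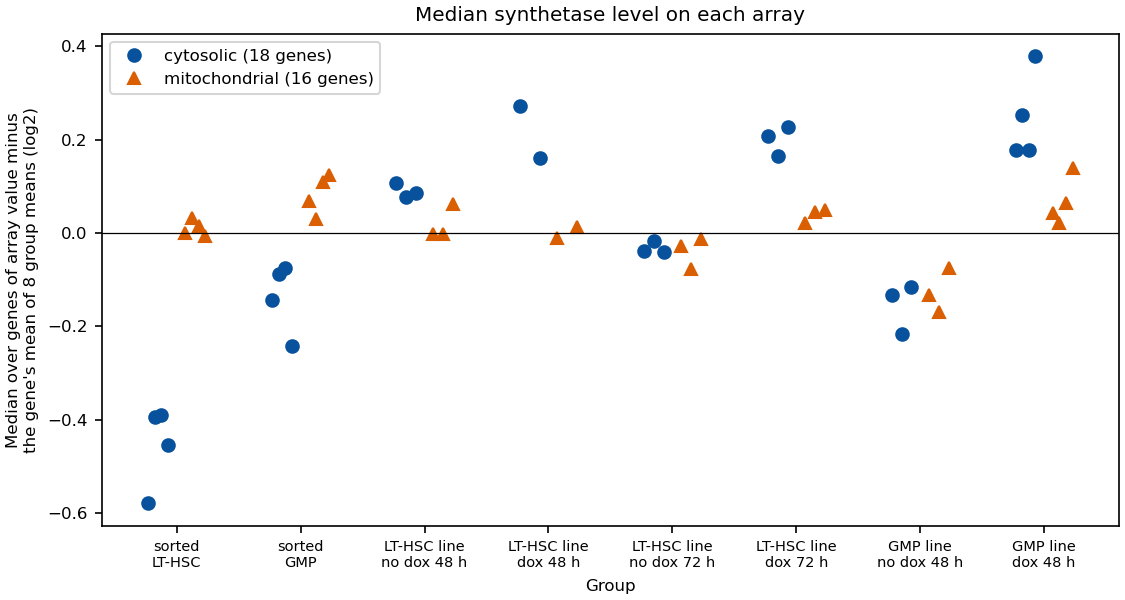
Median over the 18 cytosolic (circles) and 16 mitochondrial (triangles) genes on every array, after subtraction of each gene's mean of the 8 group means, in log2 units. The cytosolic median lay between -0.58 and -0.39 on sorted LT-HSC arrays and between 0.18 and 0.38 on arrays of GMP-derived lines with dox, while the mitochondrial median lay between -0.17 and 0.14 on all arrays.

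**Figure D2:**
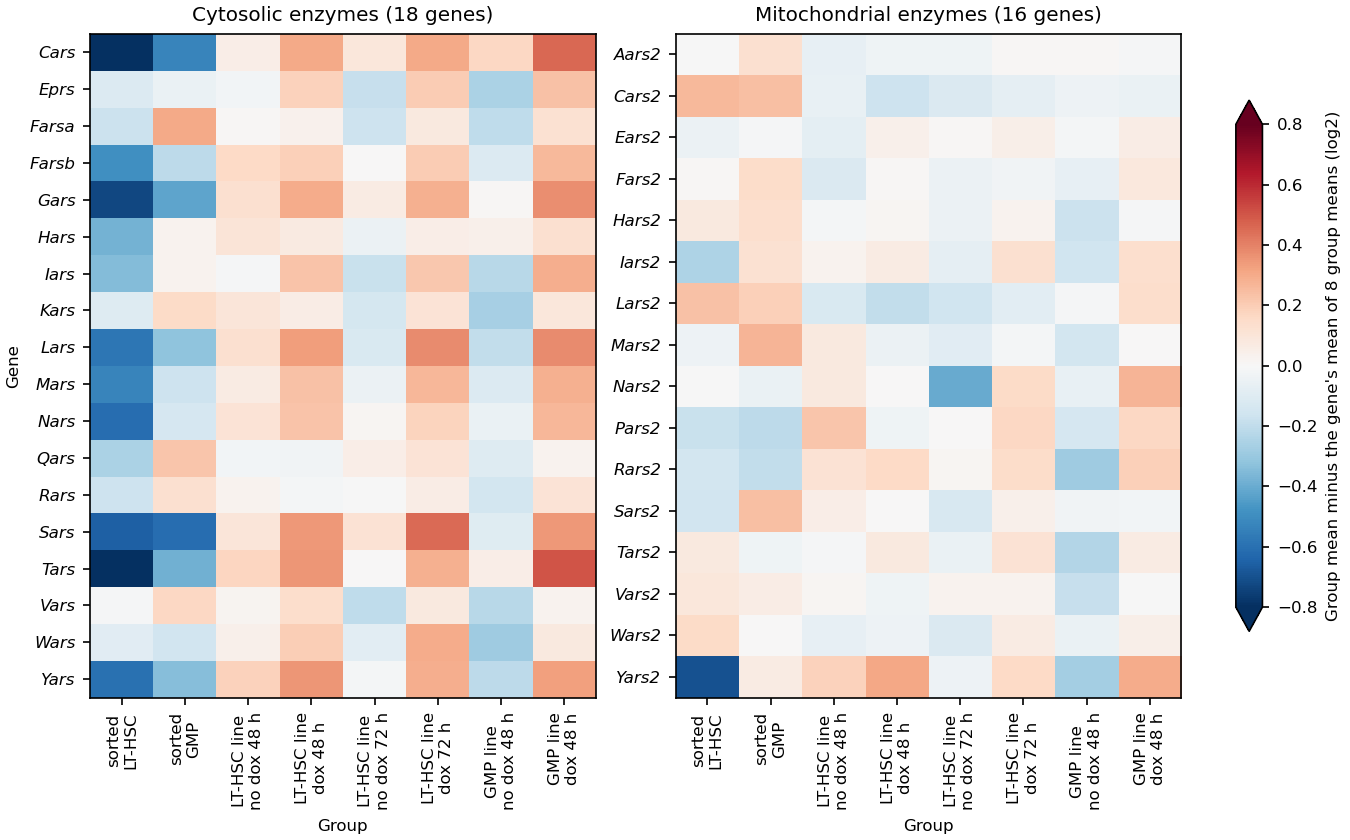
Group mean of each gene minus that gene's mean of the 8 group means (colour, log2), with cytosolic enzymes on the left and mitochondrial enzymes on the right. The column of sorted LT-HSC is low for most cytosolic genes and mixed for mitochondrial genes; the colour scale ends at 0.8 on either side of 0.

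Between the sorted populations, the normal counterparts of the lines, GMP were set against LT-HSC. Most cytosolic synthetases were higher in GMP: 14 of 18 were called higher and none lower, where a call means that limma's p-value, after Benjamini-Hochberg adjustment across all genes, was under 0.05. Of all genes 32.1% were called, 16.8% higher and 15.3% lower (22.4% and 11.5% after centring each array on its median). The median difference was 0.30 log2 over the cytosolic enzymes, 0.01 over the mitochondrial enzymes and -0.01 over all genes. Of the mitochondrial enzymes 4 of 16 were called higher and none lower. The arrays of the groups did not overlap for 12 cytosolic and 4 mitochondrial genes that were higher in GMP, against 16.1% of all genes, and for 1 mitochondrial gene that was lower, against 14.6%. Each array measured RNA of a whole sample, so fewer cells of a type and less RNA per cell cannot be told apart.

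Tars, the threonyl enzyme, had the largest cytosolic difference. Its signal was 7.70, 7.91, 7.94 and 7.84 on the LT-HSC arrays and 8.35, 8.54, 8.46 and 8.45 on the GMP arrays. All GMP arrays lay above all LT-HSC arrays, and the difference was 0.60 ± 0.089 (SE; adjusted p = 6.38e-06). Farsa, the catalytic subunit of the phenylalanyl enzyme, read 7.43, 7.32, 7.24 and 7.29 in LT-HSC and 7.74, 7.81, 7.99 and 7.67 in GMP. The groups again did not overlap, with a difference of 0.48 ± 0.085 (adjusted p = 7.11e-05), and its partner subunit Farsb differed by 0.28 ± 0.068 (adjusted p = 0.00217). Nars, the asparaginyl enzyme, rose from 9.73, 9.85, 9.84 and 10.01 to 10.29, 10.39, 10.43 and 10.21, by 0.47 ± 0.061 (adjusted p = 8.16e-07). The groups did not overlap for this gene either. Hars, the histidyl enzyme, read 8.27, 8.57, 8.45 and 8.33 against 8.79, 8.76, 8.91 and 8.80, a difference of 0.41 ± 0.075 (adjusted p = 0.000107).

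Within the multi-synthetase complex, 6 of 7 measured enzymes were called higher in GMP, as were all 3 scaffold genes (Aimp1, Aimp2 and Eef1e1, median 0.38). Qars, the glutaminyl enzyme, read 6.93, 7.34, 7.45 and 7.30 in LT-HSC and 7.80, 7.69, 7.74 and 7.68 in GMP. The LT-HSC replicate at 6.93 stood low, the other 3 were also below every GMP array, and the difference was 0.47 ± 0.082 (adjusted p = 5.6e-05). Iars, the isoleucyl enzyme, read 9.03, 9.16, 9.43 and 9.41 against 9.56, 9.70, 9.61 and 9.67, a difference of 0.37 ± 0.091 (adjusted p = 0.00204), and a second probe set of the gene read 0.18 (adjusted p = 0.0477). Mars (0.36 ± 0.063), Rars (0.30 ± 0.072), Kars (0.26 ± 0.059) and Lars (0.25 ± 0.067) were also called, with adjusted p of 5.36e-05, 0.00191, 0.00115 and 0.0041. Eprs, a single chain that charges both glutamate and proline tRNAs, differed by 0.05 ± 0.063 (adjusted p = 0.626). Outside the complex, Cars, Gars and Yars were called with differences of 0.31, 0.30 and 0.25, and the uncalled Sars, Vars and Wars gave 0.05, 0.18 and -0.07. The complex and the free enzymes thus both held called and uncalled members.

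Among mitochondrial enzymes the tyrosyl enzyme Yars2 exceeded every cytosolic difference. It read 6.76, 6.95, 7.03 and 7.20 in LT-HSC and 7.89, 7.71, 7.61 and 7.76 in GMP, without overlap, a difference of 0.76 ± 0.10 (adjusted p = 2.31e-06). Sars2, the seryl enzyme, read 6.06, 5.81, 6.19 and 6.03 against 6.38, 6.51, 6.44 and 6.33, also without overlap (0.39 ± 0.080 (adjusted p = 0.000323)). Iars2 (0.37 ± 0.10 (adjusted p = 0.00712)) and Mars2 (0.31 ± 0.087 (adjusted p = 0.0065)) were the other called genes. The isoleucyl enzymes of both compartments differed by almost the same amount, while seryl went the other way from most pairs, with Sars at 0.05 and Sars2 at 0.39. Over the 12 amino acids with both enzymes measured, the cytosolic difference was the greater for 10, with seryl and tyrosyl as exceptions.

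Proliferation genes moved with this comparison: 18 of 19 measured were called higher in GMP (median 0.80), with array means of 8.33 to 8.68 in LT-HSC and 9.30 to 9.39 in GMP. Mki67, a marker of cycling cells, differed by 0.62 ± 0.089 (adjusted p = 4.24e-06). The part of cell cycle differences in the synthetase result was not tested. Of the 11 synthetases reported as ATF4 targets 8 were higher and none lower (median 0.30). Among all 18 cytosolic enzymes, to which these belong, 14 were higher (median 0.30). The other lists of ATF4 targets were mixed: of 10 amino acid transporters 2 were higher and 1 lower, and of 13 amino acid synthesis and one-carbon genes 5 were higher and 1 lower. Mthfd2, of mitochondrial folate metabolism, was higher by 1.21 and Shmt2, which supplies it with one-carbon units, by 0.90, whereas Asns, asparagine synthetase, fell by 0.51 ± 0.095. Atf4 differed by 0.21 ± 0.072 (adjusted p = 0.0256) and Eif2ak4 fell by 0.42 ± 0.096 (adjusted p = 0.00125). Myc gave -0.04 ± 0.10 (adjusted p = 0.846). Quantile normalization of the arrays lowered the cytosolic count from 14 to 8 and the median to 0.18, ending the calls of Farsb, Gars, Kars, Lars, Rars and Yars. The call of Yars was also lost without LT-HSC replicate 1 or 4 or GMP replicate 3.

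Cultured lines were next set against the sorted cell of their origin. Here culture, immortalization and dox are averaged and cannot be told apart. Nor can the change of LT-HSC-derived lines from HSC to GMP markers be separated from them. All 7 HSC markers were lower and all 5 GMP markers higher there than in sorted LT-HSC. In LT-HSC-derived lines, averaged over their 4 groups, 15 of 18 cytosolic enzymes were called higher than in sorted LT-HSC and none lower, with a median of 0.53. Of all genes 41.4% were called (19.9% higher and 21.5% lower, or 23.6% and 16.8% after median centring). The mitochondrial enzymes split into 4 higher and 3 lower of 16, near the shares of all genes, with a median of -0.03. Without overlap, 10 cytosolic genes were higher and none lower, and 2 mitochondrial genes were higher and 2 lower, against 11.5% and 10.8% of all genes.

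Tars again had the largest difference. Over the 11 line arrays, which come from 3 lines measured repeatedly, it read 8.80 at the lowest, 8.95 at the median and 9.29 at the highest, all above the sorted LT-HSC arrays given before, and the lines were higher by 1.18 ± 0.073 (adjusted p = 1.72e-12). The fit counts these arrays as independent; with the line as a random block (chosen after seeing the data, correlation 0.073) the adjusted p was 2.28e-12 and no synthetase gained or lost a call. Cars, the cysteinyl enzyme, read 6.78, 6.87, 6.58 and 6.44 in sorted LT-HSC and, over the lines, 7.48 at the lowest, 7.67 at the median and 7.92 at the highest. The gap between the highest sorted and the lowest line array left no overlap, and the difference was 1.02 ± 0.069 (adjusted p = 8.82e-12). Gars (0.92 ± 0.066), Sars (0.91 ± 0.075), Yars (0.80 ± 0.069), Lars (0.76 ± 0.056) and Nars (0.74 ± 0.051) followed, none with adjusted p above 6.76e-10. Vars (0.02), Farsa (0.16) and Wars (0.20) were not called.

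The called mitochondrial enzymes went both ways in the same lines, at about the rate of all genes. Yars2 read 7.41 at the lowest, 7.84 at the median and 8.09 at the highest over the lines and 6.76, 6.95, 7.03 and 7.20 in sorted LT-HSC, a difference of 0.85 ± 0.087 (adjusted p = 1.31e-08). Rars2, the arginyl enzyme, Iars2 and Pars2, the prolyl enzyme, were higher by 0.26, 0.28 and 0.27. The call of Iars2 was lost without sorted replicate 1, that of Pars2 without sorted replicate 3 or 4, and that of Rars2 after quantile normalization. Lars2, the leucyl enzyme, read 6.39, 6.66, 6.43 and 6.91 in sorted LT-HSC and 6.00 at the lowest, 6.22 at the median and 6.38 at the highest over the lines. It fell by 0.37 ± 0.088 (adjusted p = 0.00111), with every line array below every sorted array. Cars2 fell by 0.36 ± 0.066 (adjusted p = 6.92e-05), likewise without overlap, and Wars2 by 0.19 ± 0.054. The cysteinyl pair therefore moved in opposite directions, Cars at 1.02 and Cars2 at -0.36, as did the leucyl pair, Lars at 0.76 and Lars2 at -0.37.

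In GMP-derived lines, averaged over both groups and set against sorted GMP, the cytosolic enzymes also split, with 9 called higher and 4 lower of 18 (median 0.15). Of all genes 24.6% were called, 11.6% higher and 13% lower. Without overlap, 4 cytosolic genes were higher and 1 lower, against 7.14% and 8.73% of all genes, and 2 mitochondrial genes were lower. Cars read 6.998, 6.998, 7.09 and 6.81 in sorted GMP and, over the 7 arrays of 4 lines, 7.60 at the lowest, 7.88 at the median and 8.10 at the highest, a difference of 0.84 ± 0.074 (adjusted p = 6.85e-09). Sars (0.73 ± 0.081), Tars (0.66 ± 0.079), Gars (0.62 ± 0.071), Lars (0.41 ± 0.060) and Yars (0.40 ± 0.074) were the next in size, all with adjusted p of 0.000197 or less. The called decreases were those of Farsa, which fell by 0.35 ± 0.076, Vars by 0.26 ± 0.064, Qars by 0.26 ± 0.073 and Kars by 0.24 ± 0.052. Qars and Kars belong to the multi-synthetase complex, in which Lars and Mars were called higher. Farsb, in contrast to its partner subunit Farsa, was higher by 0.28 ± 0.061 (adjusted p = 0.000955). The other probe set of Iars, at 0.24 (adjusted p = 0.00461), was called where the one used (0.01 ± 0.081 (adjusted p = 0.961)) was not.

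No mitochondrial enzyme was called higher in GMP-derived lines and 3 of 16 were lower (median -0.13). Of all genes 11.6% were called higher and 13% lower, and with 16 enzymes these counts lie near those shares. Mars2, the methionyl enzyme, read 7.02, 7.09, 7.30 and 7.04 in sorted GMP and 6.67 at the lowest, 6.77 at the median and 7.05 at the highest over the lines. It fell by 0.34 ± 0.077 (adjusted p = 0.00154), with 1 line array, B6-1 with dox, among the sorted values. Cars2 fell by 0.29 ± 0.071 (adjusted p = 0.00363) and Sars2 by 0.27 ± 0.071 (adjusted p = 0.00667), both without overlap. After quantile normalization 5 mitochondrial enzymes were called in place of 3.

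Most listed genes known as ATF4 targets were higher in both kinds of line. Of all genes 19.9% were called higher in LT-HSC-derived lines and 11.6% in GMP-derived lines. Of the 11 measured cytosolic synthetases reported as ATF4 targets, 10 were called higher in LT-HSC-derived lines (median 0.76) and 8 in GMP-derived lines (median 0.40). Among all 18 cytosolic enzymes, to which these belong, 15 and 9 were called higher (medians 0.53 and 0.15). Of the 13 amino acid synthesis and one-carbon genes 10 were higher in LT-HSC-derived lines (median 0.94), and 10 higher and 1 lower in GMP-derived lines (median 0.79). Of the 10 amino acid transporters 7 were higher and 1 lower in each kind of line. Of the 14 stress regulators and effectors 10 were higher and 2 lower in LT-HSC-derived lines, and 9 and 2 in GMP-derived lines. Asns was higher by 2.16 ± 0.078 and 2.82 ± 0.084, and Slc7a11, the cystine importer, by 2.78 ± 0.12 and 2.39 ± 0.13. Atf4 itself was higher by 0.62 ± 0.060 (adjusted p = 4.42e-09) and 0.51 ± 0.064 (adjusted p = 1.61e-06). The markers of late neutrophils moved as well, with 7 of 7 higher in either kind of line, and proliferation genes were higher in LT-HSC-derived lines (15 of 19) but not in GMP-derived lines (1 higher and 5 lower). The part of these shifts in the synthetase result was not tested.

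**Figure D3:**
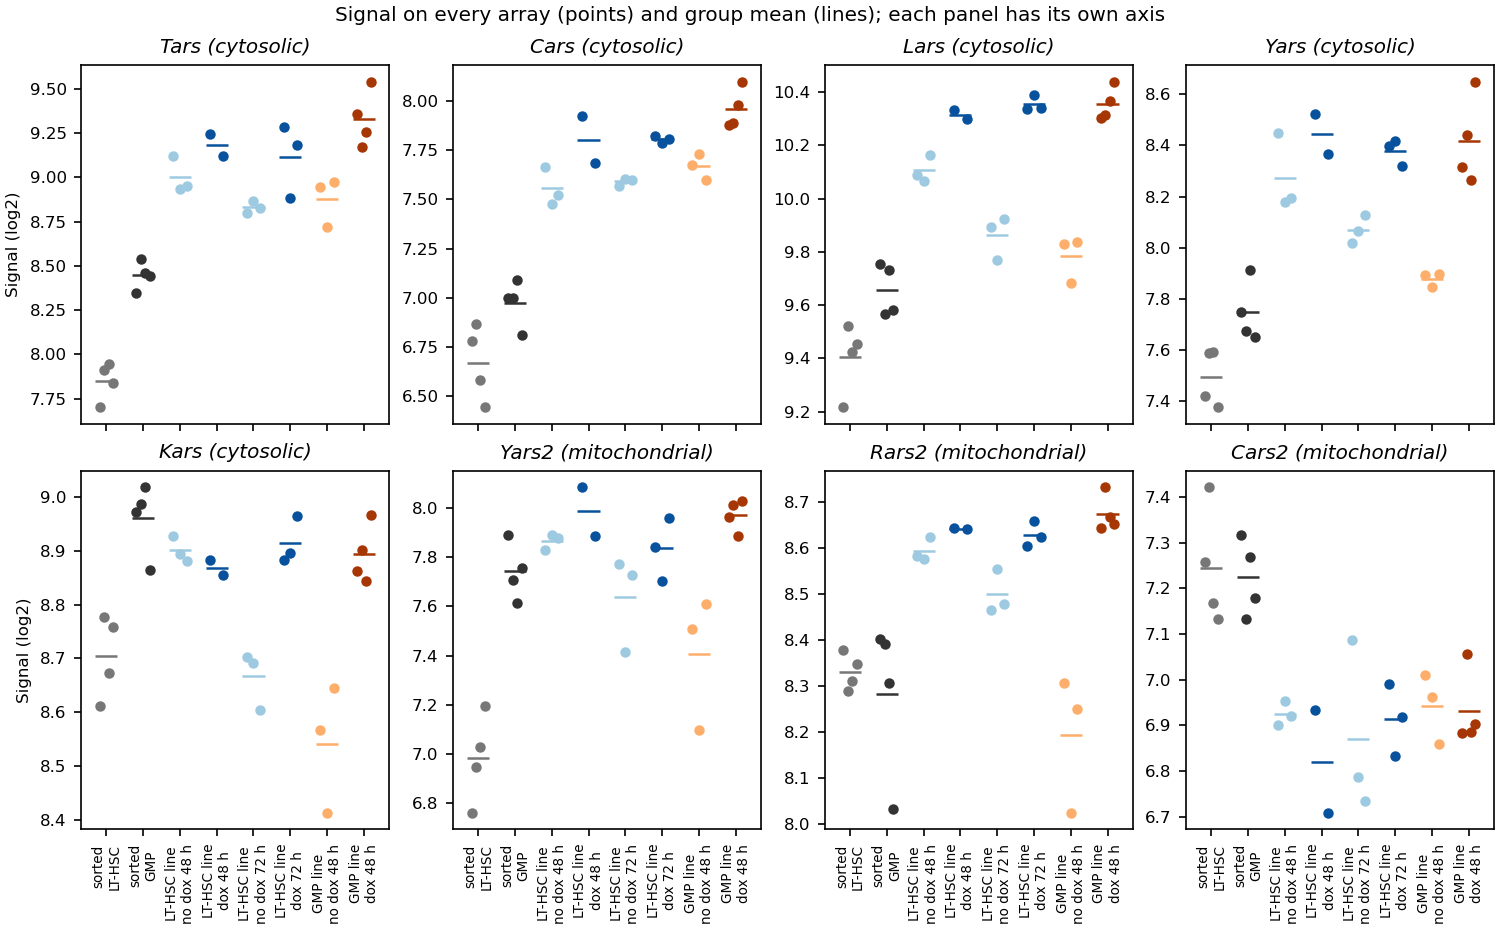
Signal on every array (points, log2) and group mean (lines) for 5 cytosolic and 3 mitochondrial synthetases; each panel has its own axis. Tars and Cars are lowest in sorted LT-HSC, Lars, Yars, Kars, Yars2 and Rars2 are lower in GMP-derived lines without dox than with it, and Cars2 is higher on every sorted array than on any line array.

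The dox contrast was made within each origin and time, beginning with GMP-derived lines at 48 h. There 15 of 18 cytosolic enzymes rose with dox and none fell, all 18 differences were positive, and the median was 0.36. Of all genes 10.9% were called, 5.75% higher and 5.18% lower. The arrays with and without dox did not overlap for 15 cytosolic genes, all higher with dox, against 11% of all genes that were higher without overlap. Of the 16 mitochondrial enzymes 3 rose and none fell, with a median of 0.16. For 14 of them the difference was positive, 7 had an unadjusted p under 0.05 in limma, and 7 were higher with dox without overlap. Among all 19937 genes 10810 differences were positive and 4196 had an unadjusted p under 0.05 in limma.

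Lars, the leucyl enzyme, had the largest cytosolic difference. It read 9.83, 9.68 and 9.84 without dox (lines B6-2, B6-3 and F6-6) and 10.30, 10.31, 10.37 and 10.44 with dox (the same lines and B6-1). The groups lay well apart, by 0.57 ± 0.073 (adjusted p = 1.06e-05). Iars rose from 9.45, 9.32 and 9.38 to 9.77, 9.998, 9.79 and 10.05, by 0.52 ± 0.098 (adjusted p = 0.000859), and the second probe set read 0.48 (adjusted p = 9.64e-05). Eprs read 9.91, 9.61 and 9.84 without dox and 10.17, 10.29, 10.29 and 10.37 with it, a difference of 0.49 ± 0.068 (adjusted p = 3.17e-05). These are enzymes of the multi-synthetase complex, of which 6 of 7 measured members rose, with Mars at 0.40, Kars at 0.35 and Rars at 0.25; Qars, at 0.13 ± 0.089 (adjusted p = 0.487), was not called. Of the scaffold genes Eef1e1 (0.54) and Aimp1 (0.34) rose.

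Of the free enzymes, Yars, the tyrosyl enzyme, read 7.89, 7.85 and 7.90 without dox and 8.32, 8.44, 8.27 and 8.65 with it. The dox arrays were all higher and varied more, the highest being B6-1, and the difference was 0.54 ± 0.090 (adjusted p = 0.000221). Tars read 8.95, 8.72 and 8.98 against 9.36, 9.17, 9.26 and 9.54 (0.45 ± 0.096 (adjusted p = 0.00228)), and Sars, the seryl enzyme, 8.77, 8.88 and 8.77 against 9.09, 9.18, 9.16 and 9.57 (0.45 ± 0.098 (adjusted p = 0.0029)). Line B6-1, which had no array without dox, gave the highest dox value for these 3 genes and for 16 of the 18 cytosolic genes in all. Its cytosolic median was 0.38 after subtraction of each gene's mean of the group means, against 0.18 to 0.25 on the other dox arrays. Without this array 11 cytosolic enzymes were called and the median difference was 0.31. The count was also 11 without the B6-3 array that had no dox. The call of Farsa was lost without either of these arrays or without F6-6 with dox. Farsb (0.37), Gars (0.36), Farsa (0.32), Nars (0.32), Cars (0.29) and Vars (0.25) also rose. Wars, the tryptophanyl enzyme, gave 0.36 ± 0.12 (adjusted p = 0.0525) and Hars 0.09 ± 0.081 (adjusted p = 0.652). With lines paired, a fit in which B6-1 no longer informs the contrast, 12 cytosolic enzymes were called: Cars (0.25, adjusted p = 0.0758), Rars (0.19, adjusted p = 0.112) and Vars (0.18, adjusted p = 0.154) dropped out.

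The 3 mitochondrial enzymes that rose were Yars2, Rars2 and Tars2. Yars2 read 7.51, 7.10 and 7.61 without dox and 7.96, 8.01, 7.89 and 8.03 with dox, a difference of 0.57 ± 0.11 (adjusted p = 0.00133). Rars2 read 8.31, 8.03 and 8.25 and 8.65, 8.73, 8.67 and 8.65, a difference of 0.48 ± 0.076 (adjusted p = 0.000129), larger than that of its cytosolic counterpart Rars. For both genes B6-3 without dox was the lowest array. Tars2, the threonyl enzyme, read 6.78, 6.57 and 6.73 against 6.92, 6.92, 7.22 and 6.90 (0.30 ± 0.094 (adjusted p = 0.0407)). The call of Tars2 was lost under 5 of 14 alternatives (adjusted p up to 0.245), among them quantile normalization, the fit of these groups alone and leaving out the F6-6 dox array, its highest. Nars2 (0.33), Iars2 (0.30) and Pars2 (0.30) had differences of similar size with larger errors and were not called, while Cars2, Sars2 and Aars2 lay between -0.02 and 0.00. Over the 12 amino acids the cytosolic difference was the greater for 8.

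In LT-HSC-derived lines at 72 h the same direction was seen with fewer calls. Of the cytosolic enzymes 6 of 18 rose and none fell, all 18 differences were positive, and the median was 0.27. Among all 19937 genes 8360 differences were positive. Of all genes 7.15% were called (3.43% higher and 3.72% lower, or 4.18% and 2.64% after median centring). Arrays did not overlap for 14 cytosolic genes, all higher with dox, against 11.2% of all genes, and for 3 mitochondrial genes, also higher. Nars2 was the only mitochondrial enzyme called, all 16 differences were at or above 0.00, and their median was 0.10.

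Lars again led. It read 9.89, 9.77 and 9.92 without dox (lines B6-2, B6-3 and B6-1) and 10.34, 10.39 and 10.34 with dox in the same order, so that every line was higher, by 0.49 ± 0.078 (adjusted p = 0.000253). Eprs read 9.81, 9.81 and 9.96 against 10.23, 10.26 and 10.25 (0.39 ± 0.073 (adjusted p = 0.00157)). Iars read 9.46, 9.63 and 9.20 against 9.81, 9.80 and 9.87 (0.40 ± 0.11 (adjusted p = 0.021)), with 1 low array, B6-1 without dox, and the second probe set read 0.38 (adjusted p = 0.00402). Mars, the methionyl enzyme (0.32 ± 0.072 (adjusted p = 0.00741)), Kars, the lysyl enzyme (0.25 ± 0.068 (adjusted p = 0.0253)), and Vars, the valyl enzyme (0.28 ± 0.084 (adjusted p = 0.0393)), completed the called genes. Of these 6, all but Vars belong to the multi-synthetase complex. With lines paired, Kars lost its call (adjusted p = 0.0557) and Sars (0.33, adjusted p = 0.026), Tars (0.29, adjusted p = 0.0375), Wars (0.38, adjusted p = 0.0258) and Yars (0.31, adjusted p = 0.0283) gained one, for 9 in all.

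Nars2, the mitochondrial asparaginyl enzyme, read 5.94, 6.35 and 6.44 without dox and 6.86, 6.81 and 6.73 with dox. The B6-2 array without dox stood lowest, and the difference was 0.56 ± 0.15 (adjusted p = 0.0187). The call was lost without that array, or without either of the dox arrays of B6-2 and B6-3. The next mitochondrial differences were those of Iars2 (0.20 ± 0.12 (adjusted p = 0.37)) and Yars2 (0.20 ± 0.12 (adjusted p = 0.387)). Iars lost its call without either array of B6-2 or B6-1, and Mars without the dox array of B6-2. The calls of Vars (adjusted p up to 0.143) and Kars (adjusted p up to 0.168) were each lost under 7 of 13 alternatives. The cytosolic count fell to 2 when the B6-2 dox array was left out, to 3 without either array of B6-1, and to 2 in a fit of these 6 arrays alone, in which no mitochondrial enzyme was called.

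At 48 h in LT-HSC-derived lines (n = 2 with dox and 3 without) no synthetase was called in either direction, and of all genes 0.441% were. The cytosolic median was 0.16, 14 of 18 differences were positive and 5 had an unadjusted p under 0.05 in limma. Of the mitochondrial enzymes 0 did (median 0.03). Among all 19937 genes 10154 differences were positive and 1456 had such a p. Sars read 8.93, 8.95 and 9.12 without dox and 9.23 and 9.27 with dox (0.25 ± 0.12 (adjusted p = 0.668)), and Cars 7.67, 7.48 and 7.53 against 7.92 and 7.68 (0.25 ± 0.11 (adjusted p = 0.602)). In both genes the dox arrays lay above all arrays without dox. Arrays did not overlap for 9 cytosolic genes, all higher with dox, against 12.8% of all genes. Of the mitochondrial enzymes 2 were higher and 3 lower without overlap (12.3% of all genes were lower), the largest difference being that of Pars2 (-0.26 ± 0.14 (adjusted p = 0.78)).

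**Figure D4:**
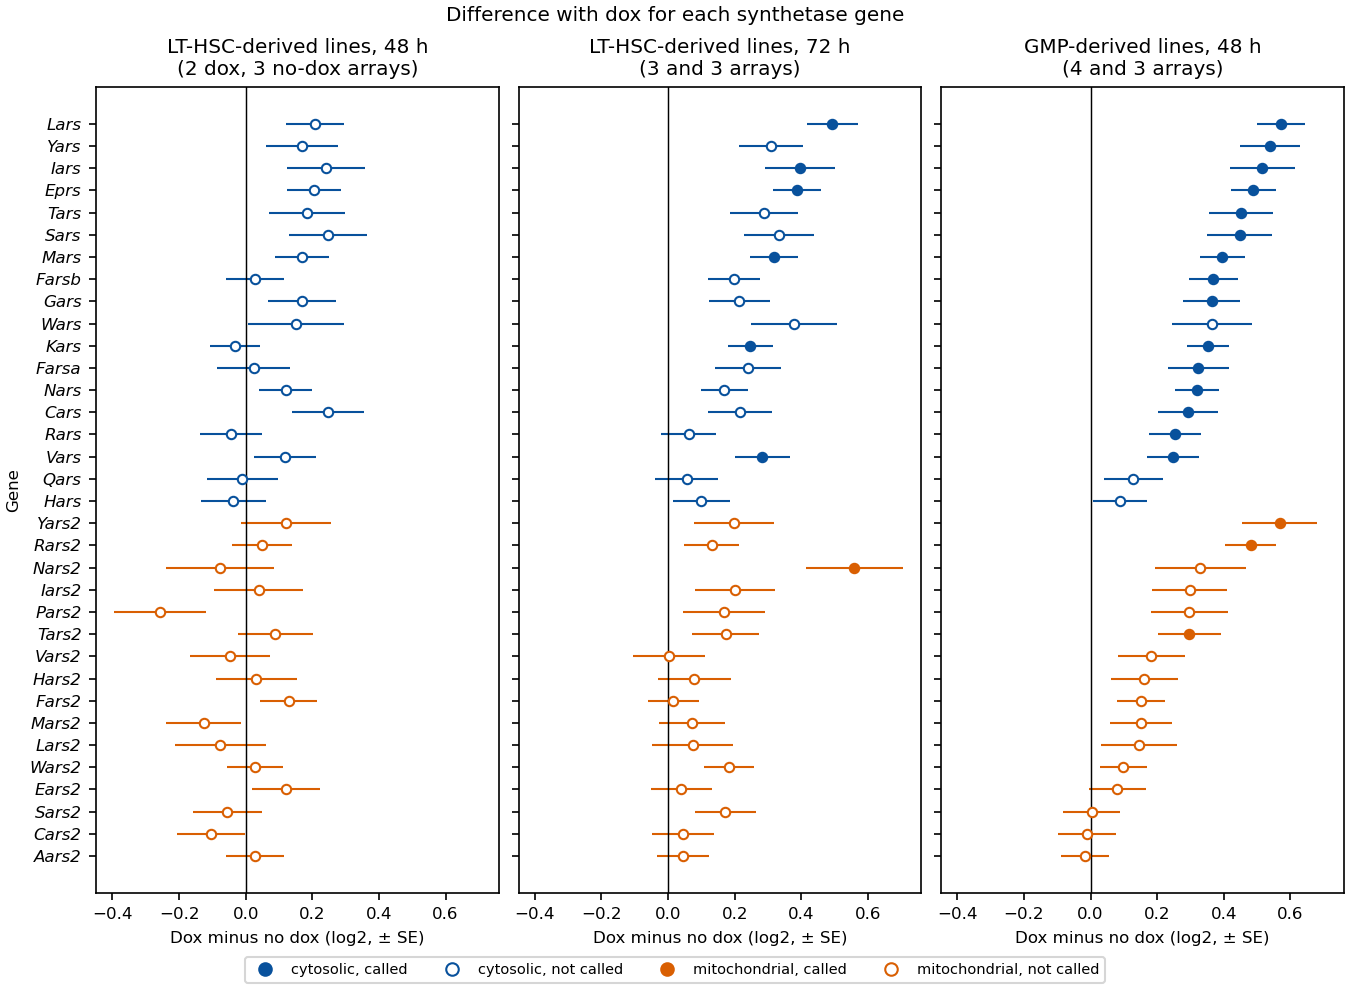
Difference with dox (points, log2, bars ± SE) for the 34 measured synthetases in LT-HSC-derived lines at 48 h and 72 h and GMP-derived lines at 48 h, ordered by the last panel; filled points were called. Of the cytosolic genes 0, 6 and 15 of 18 were called, and of the mitochondrial genes 0, 1 and 3 of 16.

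Whether the dox difference at 48 h depended on the origin was tested as an interaction. No synthetase passed, and 0.231% of all genes did. The dox difference was greater in GMP-derived lines for all 18 cytosolic and 14 of 16 mitochondrial enzymes, with medians of 0.25 and 0.21. In limma 8 and 3 enzymes had an unadjusted p under 0.05. Among all 19937 genes the dox difference was greater in GMP-derived lines for 10495, and 1742 had such a p. The enzymes were measured on the same arrays, so their directions are not independent of each other. The largest values among the synthetases were those of the mitochondrial Pars2 (0.55 ± 0.18 (adjusted p = 0.278)) and Yars2 (0.45 ± 0.18 (adjusted p = 0.423)). Rars2 (0.43 ± 0.12 (adjusted p = 0.16)) and Nars2 (0.41 ± 0.21 (adjusted p = 0.627)) followed. Kars (0.38 ± 0.099 (adjusted p = 0.136)) and Yars (0.37 ± 0.14 (adjusted p = 0.388)) had the largest cytosolic values. A difference between the origins was therefore not shown for any single synthetase.

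The genes around the synthetases in the ATF4 pathway rose with dox in the same lines. Of the 13 measured amino acid synthesis and one-carbon genes 12 rose in GMP-derived lines (median 0.58), 9 in LT-HSC-derived lines at 72 h (median 0.46) and 1 at 48 h. Cth, which makes cysteine from cystathionine, led each time with 2.28 ± 0.29, 2.22 ± 0.31 and 2.00 ± 0.35. Asns rose by 0.57 ± 0.10 in GMP-derived lines and 0.75 ± 0.11 in LT-HSC-derived lines at 72 h. Of 10 amino acid transporters 7, 3 and 0 rose, led by the cationic amino acid carrier Slc7a3 (1.95 ± 0.20 in GMP-derived lines). Of the 11 synthetases reported as ATF4 targets 10, 4 and 0 rose. They are part of the 18 cytosolic enzymes, of which 15, 6 and 0 rose, so these counts do not set the reported targets apart. Of all genes 5.75%, 3.43% and 0.155% were called higher in the same contrasts.

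Neither Atf4 nor any gene for the eIF2 kinases was called with dox. Atf4 gave 0.18 ± 0.078 (adjusted p = 0.164) in GMP-derived lines, 0.15 ± 0.083 (adjusted p = 0.311) in LT-HSC-derived lines at 72 h and 0.10 ± 0.093 (adjusted p = 0.954) at 48 h. Of the 4 kinase genes, Eif2ak4 gave 0.02 ± 0.10 (adjusted p = 0.963) in GMP-derived lines. Of 14 stress regulators and effectors 2 rose in GMP-derived lines, Chac1 (0.53 ± 0.16 (adjusted p = 0.031)) and Ddit3 (0.28 ± 0.084 (adjusted p = 0.0336)), and 1 fell in LT-HSC-derived lines at 72 h, Atf3, by 1.19 ± 0.23 (adjusted p = 0.00209). The ATF4 protein, which is controlled largely by translation, was not measured, and its part in the synthetase result was not tested. Myc rose in GMP-derived lines (0.50 ± 0.11 (adjusted p = 0.0032)) and gave 0.23 ± 0.12 (adjusted p = 0.275) in LT-HSC-derived lines at 72 h. Mxd1, an antagonist of MYC that rises in maturing myeloid cells, fell by 0.78 ± 0.12 and 0.50 ± 0.13, and of the 7 genes of MYC and its partners 1 rose and 2 fell in GMP-derived lines.

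Other steps of tRNA use rose beside the synthetases in GMP-derived lines. Of 12 tRNA export and processing genes 8 rose there and 4 in LT-HSC-derived lines at 72 h, among them Pop1, a subunit of RNase P, by 0.64 ± 0.090 and 0.39 ± 0.096, and Xpot, the tRNA exporter, by 0.47 ± 0.083 and 0.57 ± 0.089. Of 5 measured cytosolic elongation factors 3 rose in GMP-derived lines (Eef2 by 0.25, Eef1d by 0.24 and Eef1b2 by 0.18), and of 12 mitochondrial translation factors 2 did (Tufm by 0.39 and Mtif2 by 0.30). By catalytic fold, which divides the enzymes into unrelated class I and class II families, 7 of 9 class I and 7 of 8 class II cytosolic enzymes rose in GMP-derived lines, and 4 of 9 and 1 of 8 in LT-HSC-derived lines at 72 h.

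Maturation markers moved with dox in the other direction. In GMP-derived lines 6 of 7 late neutrophil markers and 5 of 5 macrophage markers fell, with array means of 11.12 to 11.19 without dox and 8.28 to 8.59 with dox for the former and 8.40 to 9.71 against 6.81 to 8.15 for the latter. In LT-HSC-derived lines at 72 h 3 of 7 and 5 of 5 fell, and at 48 h 1 of 7 and 1 of 5. The part of the mix of immature and maturing cells in the synthetase result was not tested. Proliferation genes did not rise: of 19 measured, 0 were called in LT-HSC-derived lines at either time (median -0.05 at 48 h and 0.00 at 72 h), and 1, Mki67, fell in GMP-derived lines, by 0.33 ± 0.096 (adjusted p = 0.0248).

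Lines of both origins were compared at 48 h. Without dox, 4 of 18 cytosolic enzymes were lower in GMP-derived than in LT-HSC-derived lines and none was higher. Of the 18 differences 17 were negative, with a median of -0.20, against 10288 negative among all 19937 genes. Of all genes 6.8% were called, 3.28% higher and 3.52% lower. Of the mitochondrial enzymes 2 of 16 were lower (median -0.15). Arrays did not overlap for 13 cytosolic genes, all lower in GMP-derived lines, against 11.9% of all genes, and for 6 mitochondrial genes, also lower.

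Yars read 8.45, 8.18 and 8.20 in LT-HSC-derived lines and 7.89, 7.85 and 7.90 in GMP-derived lines, and fell by 0.40 ± 0.096 (adjusted p = 0.0116). Kars read 8.93, 8.89 and 8.88 against 8.57, 8.41 and 8.65 and fell by 0.36 ± 0.068 (adjusted p = 0.00134). In both genes all GMP-derived arrays were the lower ones. Lars fell by 0.32 ± 0.078 (adjusted p = 0.0109) and Farsb by 0.27 ± 0.079 (adjusted p = 0.0362). Yars2 read 7.83, 7.89 and 7.88 against 7.51, 7.10 and 7.61 and fell by 0.46 ± 0.12 (adjusted p = 0.0201), and Rars2 fell by 0.40 ± 0.081 (adjusted p = 0.00281). The other probe set of Iars, at -0.33 (adjusted p = 0.0101), was called where the one used (-0.21 ± 0.11 (adjusted p = 0.298)) was not. The cytosolic count fell to 2 without the B6-2 or B6-1 array of LT-HSC-derived lines or the B6-3 array of GMP-derived lines, and to 0 in a fit of these 6 arrays alone. The mitochondrial count fell to 1 without the B6-3 or B6-1 array of LT-HSC-derived lines or the B6-3 array of GMP-derived lines, and to 0 in the same smaller fit.

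With dox, no synthetase was called between the origins, and of all genes 2.11% were. The cytosolic median was 0.05, the differences ran from -0.12 to 0.16, and 0 of 18 had an unadjusted p under 0.05 in limma. Of the mitochondrial enzymes 1 did (median 0.04), and of all 19937 genes 1996 did. Cars (0.16 ± 0.10 (adjusted p = 0.7)) and Tars (0.15 ± 0.11 (adjusted p = 0.761)) had the largest cytosolic differences, and Lars2 (0.33 ± 0.13 (adjusted p = 0.29)) and Nars2 (0.27 ± 0.15 (adjusted p = 0.643)) the largest mitochondrial ones. Arrays overlapped for all 18 cytosolic genes and 14 of 16 mitochondrial genes, whereas 20.8% of all genes did not overlap. These comparisons share arrays with the dox contrasts, so their values are not independent of them.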

How the data were processed

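Total RNA was isolated from small samples, amplified to cDNA and labelled with biotin, per the labels' protocols. The deposited values are processed probe set signals on a log2 scale. The submitters' processing notes name limma and R 3.1.1; the background correction and normalization used are, in the sources used here, not given. Of 34760 probe sets 21640 carried 1 gene symbol, 1321 several and 11799 none, and 21553 annotated entries matched RefSeq by gene ID. Each of 19937 genes was represented by its brightest probe set with 1 symbol (Iars had 2 such probe sets).

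With limma 3.58.1 (R 4.3.3), lmFit estimated the 8 group means from all 26 arrays, and contrasts.fit and eBayes gave 9 comparisons. Two-sided p-values were adjusted by Benjamini-Hochberg across the 19937 genes, and those under 0.05 were called. Differences are log2 values with the SE of the fit. Dim probe sets were kept, and precision is limited by the number of arrays. The procedure was tested on simulated data.

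Line names in the labels pair arrays with and without dox. The residuals of paired arrays correlated with r of 0.21 and 0.35 (LT-HSC-derived, 48 h), -0.06 to 0.32 (72 h) and 0.29 to 0.40 (GMP-derived).

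The members and gene lists were chosen with earlier results of these data known: cytosolic and mitochondrial synthetases, complex enzymes and scaffold, class I and II, ATF4 targets, amino acid synthesis and one-carbon genes, amino acid transporters, stress regulators, eIF2 kinases, elongation factors, mitochondrial translation factors, tRNA export and processing, MYC and partners, proliferation and cell type markers. Values per array are given for up to 6 called members with the largest difference per class and comparison. Where fewer were called, up to 2 uncalled ones are given. From the lists, differences are given for up to 3 called genes and for Atf4, Ddit3, Eif2ak4, Asns, Myc and Mki67. The alternatives tried were the replicate block, a fit of the compared groups alone, quantile normalization, median centring, a filter on dim probe sets, a trended prior, the mean of probe sets and leaving out each array; the line as a random block and the line name shared by both origins as a block were added after seeing the data.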

Additional observations from a re-analysis of the deposited data

Results flagged for a closer look

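In groups of 4 arrays, 102 sets of values (34 genes in 3 groups) were screened for an array that stood far from the others by Dixon's criterion, and 7 did; chance flags about 1 in 20 such groups. In sorted LT-HSC, Eprs read 10.02 in replicate 2 against 9.90 to 9.91 (log2) on the other arrays. Nars2 read 6.57 in replicate 1 of the same cells, against 6.66 to 6.68. Vars2 stood low in replicate 2, at 5.84 against 5.97 to 6.00.

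In GMP-derived lines with dox, Qars stood low in F6-6, at 7.46 against 7.55 to 7.56. Tars2 stood high in the same line, at 7.22 against 6.90 to 6.92. Cars2 stood high in B6-3, at 7.06 against 6.88 to 6.90, and Mars2 in B6-1, at 7.04 against 6.76 to 6.80.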

How the results depend on the processing

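Of 87 called differences of single synthetases, 59 kept their call and direction under every alternative tried and 1 reversed: Eprs in LT-HSC-derived lines against sorted LT-HSC, from 0.15 to -0.011 after quantile normalization (adjusted p = 0.905). Fitted on the compared groups alone, the counts called with dox at 72 h fell to 2 cytosolic and 0 mitochondrial, and those between origins without dox to 0 and 0. Quantile normalization gave 8 cytosolic calls in sorted GMP against sorted LT-HSC and 5 mitochondrial calls in GMP-derived lines against sorted GMP. For LT-HSC-derived lines against sorted LT-HSC it gave 12 cytosolic calls (median 0.40), with those of Kars and Rars also lost. With dox in GMP-derived lines it gave 13 cytosolic and 2 mitochondrial calls. Fewer arrays were fitted in the former setting; the cause of the shifts in the latter was not tested.

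Leaving out 1 array at a time gave 13 to 15 cytosolic and 4 to 5 mitochondrial calls between sorted cells, 12 to 16 and 6 to 8 for LT-HSC-derived lines against sorted LT-HSC, and 13 to 14 and 3 to 4 for GMP-derived lines against sorted GMP. With dox it gave 11 to 15 and 2 to 3 in GMP-derived lines, 2 to 7 and 0 to 1 in LT-HSC-derived lines at 72 h, and 0 to 0 at 48 h. Between origins without dox it gave 2 to 5 and 1 to 2, and 0 to 0 with dox and for the interaction.

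With the line as a replicate block, 9 cytosolic enzymes were called with dox at 72 h and 12 in GMP-derived lines, as given with those results; no other call of a dox contrast changed. Sorted replicates share only a number (residual r of 0.02 to 0.06). Lines of both origins share the names B6-1, B6-2 and B6-3, without a statement of what these mark (residual r of 0.01 to 0.17 for B6-2 and B6-3 in the same condition). Blocking on the number gave 15 cytosolic calls between sorted cells, 14 in LT-HSC-derived lines against sorted LT-HSC and 3 between origins without dox. Blocking on the shared name, added after seeing the data, also gave 3, ending the call of Farsb (-0.23, adjusted p = 0.132), with 2 mitochondrial calls, and 0 and 0 with dox. With the line as a random replicate block, likewise added, the lines against sorted cells kept 15 and 7 calls (LT-HSC) and 13 and 3 (GMP). Median centring shifted single arrays by -0.11 to 0.09. The filter on dim probe sets left out Aars2 and Pars2.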
